A study of Mus musculus with 28 samples.

Results

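The chemokine system of the mouse liver was examined through every gene whose symbol begins with Ccl, Cxcl, Xcl, Cx3cl, Ccr, Cxcr, Xcr or Cx3cr followed by a number. Of 33924 gene rows in a table of single non-parenchymal liver cells, 60 carried such a symbol, and 50 of these had at least 1 transcript count: 32 ligands and 18 receptors. Together they held 14259 of 2660172 counts, or 0.536%. All 60 symbols were also rows of a table of wells that each received a hepatocyte joined to a CD31 cell, in which 32 had a count and the sum was 15094 of 56976156 counts, or 0.0265%. CD31 is a surface protein of endothelial cells.

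Chemokines are small secreted proteins that guide leukocytes along gradients by binding G protein-coupled receptors on their surface. In the liver they are known from the sinusoids, where endothelial cells and the resident macrophages (Kupffer cells) line the blood flow and hold lymphocytes, natural killer (NK) cells and dendritic cells. Some ligands are made constantly and set where cells settle, and others are induced by interferon or by inflammatory signals that act through NF-kappaB.

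Transcripts were counted with MARS-seq, a plate method that reads the 3' ends of mRNAs and counts each molecule once by its unique molecular identifier (UMI), in livers of C57BL/6 male mice without any genetic change named in the labels. The mice were fasted for 2 hours, anaesthetised with ketamine and xylazine, and their livers were dissociated by collagenase perfusion. Single non-parenchymal cells came from 11 libraries of 2 mice aged 3 and 4 months, and the pairs came from 17 libraries of 3 mice, 1 aged 6 weeks and 2 aged 7 weeks. No source gives the library or the mouse of a well, so each table was 1 sample, no test between groups was possible, and age cannot be told apart from the kind of sample.

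The single-cell table held 3720 wells with a median of 526.5 gene UMIs, and 2692 wells with at least 300 UMIs were kept. Clusters were built without the 60 chemokine system genes and were named from lists of marker genes, so the naming did not use the values below. This gave 877 endothelial-like, 297 Kupffer-like, 602 T-like, 315 NK-like, 287 B-like, 144 dendritic-like and 111 plasmacytoid-like wells, with median depths between 565 UMIs in endothelial-like and 1343 UMIs in dendritic-like wells. Another 30 wells were neutrophil-like, 11 hepatocyte-like, and 18 were named by no list. The NK-like class also held T cell transcripts: its level of the T marker list was 3904 UMIs per 1000000, against 4654 in T-like wells and at most 2103 in the other 5 classes. The dendritic-like class held monocyte transcripts. Its level of the monocyte marker list was 9725, against 6605 in Kupffer-like wells and at most 5343 in the other 5 classes. The level of the hepatocyte marker list in the 7 classes was between 3.70% and 10.3% of its level in the pairs, so every class carried some hepatocyte RNA. Intervals given below are at 95% (exact Poisson for levels, exact binomial for shares and ratios) and cover counting error only, not differences between mice.

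A level is the number of UMIs of a gene per 1000000 gene UMIs of a class, and a class was said to lead a gene when its level was at least 2-fold that of the next of the 7 classes. Of the 50 genes, 31 reached at least 10 UMIs over the 7 classes, and 23 of the 31 were led by a class, where the share over all 12124 genes with that many UMIs was 20.6%. The median log2 ratio of the leading to the next class was 1.82 over the 31 and 0.39 over all genes. A class led 15 of the 18 ligands and 8 of the 13 receptors that reached the minimum. Dendritic-like wells led 8 of the 31, where 1.62% of all genes were led by that class; 3 of the 8 (Ccl22, Ccl17 and Ccr1) stood higher still in clusters outside the 7 classes. NK-like wells led 5 (1.58% of all genes), Kupffer-like wells 4 (2.73%) and B-like wells 3 (1.45%). Endothelial-like wells led 2, against 8.53% of all genes, plasmacytoid-like wells 1 (3.71%), and T-like wells 0 (0.94%). All 5 led by NK-like wells and all 4 led by Kupffer-like wells were ligands, and all 3 led by B-like wells were receptors. These tallies include leads whose log2 interval allows no difference: Ccl17 (-0.14 to 8.32), Ccl2 (-1.19 to 4.50), Ccl1 (-0.40 to 3.62) and Cxcr7 (-0.96 to 7.34).

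**Figure D1:**
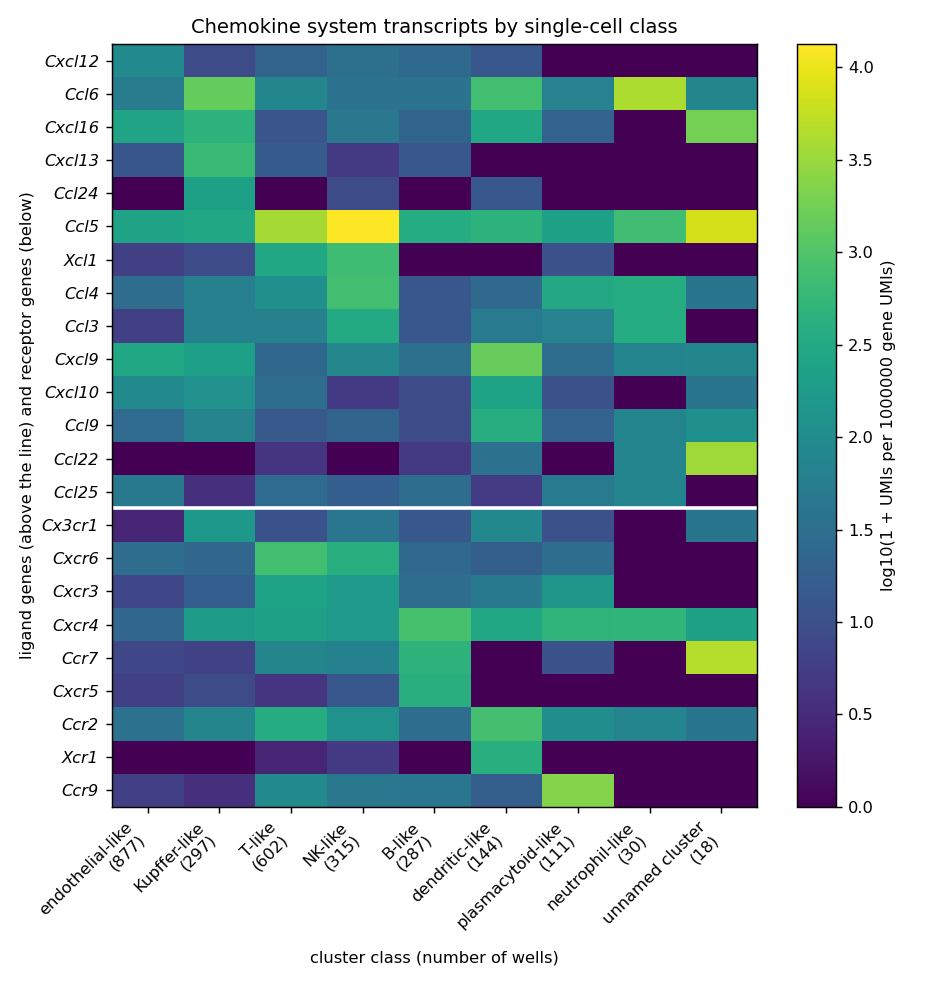
Levels of 23 of the 24 genes with at least 50 UMIs in the kept wells (rows, ligands above the white line and receptors below) in 9 clusters (columns, with the number of wells), colored by log10 of 1 plus the UMIs per 1000000. Ccl5 in NK-like wells, at 13339, is the brightest cell; Xcr1 is bright in 1 column, and Ccr7, Ccl22 and Cxcl16 are brightest in the cluster without a name.

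The ligands of cytotoxic lymphocytes were highest in NK-like wells. Ccl5 (RANTES) attracts T cells, monocytes and eosinophils and is stored in granules by memory CD8 T cells. Its level was 13339 (12887 to 13803) in NK-like and 3766 (3614 to 3923) in T-like wells, and between 227 and 462 in the other 5 classes. A Ccl5 UMI was found in 84.1% of NK-like, 68.3% of T-like and 12.7% of endothelial-like wells, and after every well was thinned to 300 UMIs in 77.5%, 50.3% and 6.50%. The endothelial-like share serves as the background, since a class that should lack Ccl5 can hold it as free RNA. The NK-like to T-like ratio was 3.54-fold (log2 1.82, interval 1.75 to 1.90). It was log2 1.02 when the wells were clustered anew with at least 500 UMIs each, and 0.68 when wells with a UMI, divided by the UMIs of the class, replaced UMIs.

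Xcl1 (lymphotactin), the ligand of the receptor Xcr1, was at 698 in NK-like wells, at 293 in T-like wells and at no more than 9.47 in the other classes. Ccl3 and Ccl4 (MIP-1 alpha and beta), neighbouring genes whose products draw monocytes and lymphocytes, were at 329 and 739 in NK-like wells, and the next class for both was the plasmacytoid-like, at 66.3 and 303. Both differed between the parts of the plate series described below, and in the lower range of well numbers the plasmacytoid-like wells were above the NK-like. Ccl1, with 11 UMIs in all, was split as 6 in NK-like and 5 in T-like wells. RefSeq places Ccl3 and Ccl4 so that they overlap, and whether the counting used strand is not stated, so reads of the pair may not be fully separate.

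The NK-like wells were also split by whether they held a UMI of a Cd3 or Cd8 gene, a split made after the T cell transcripts were seen. The 174 wells with such a UMI had Ccl5 at 15230 and Xcl1 at 431, and the 141 wells without had Ccl5 at 10477 and Xcl1 at 1102. Ncr1, which encodes an activating receptor of NK cells, was at 67.4 in the wells with and 337 in the wells without. Ccl4 was at 923 against 459, Ccl3 at 445 against 153, and the receptor gene Ccr7 at 101 against 10.2. Xcl1 was thus higher on the side with more Ncr1, and Ccl5, Ccl3 and Ccl4 were higher on the side with T cell transcripts, with intervals that did not overlap.

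Kupffer-like wells led 2 ligands by wide margins. Cxcl13, which draws B cells into follicles through Cxcr5, was at 632 (553 to 718) there and at no more than 14.7 in any other of the 7 classes. Its 233 UMIs lay in 45 of 297 wells, and 5 wells held 51.1% of them. Ccl24 (eotaxin-2), a ligand of the eosinophil receptor Ccr3, was at 217 (172 to 270) with 80 of its 85 UMIs in this class and 0 in endothelial-like, T-like and B-like wells. These lay in 51 wells, the top 5 of which held 32.5%. Ccr3 itself had 1 UMI in the table, in a well under 300 UMIs.

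Ccl6, a ligand of Ccr1 found in rodents, was at 1399 in Kupffer-like and 752 in dendritic-like wells, a ratio of 1.86-fold that stayed under the 2-fold limit. In the 30 neutrophil-like wells it was at 4076 (3087 to 5281). Cxcl16, a membrane-bound ligand of Cxcr6 that is known to hold lymphocytes in the sinusoid, was at 469 in Kupffer-like, 293 in dendritic-like and 256 in endothelial-like wells. In T-like wells it was at 11.5. It was thus a transcript of the cells lining the sinusoid and of dendritic-like wells rather than of lymphocytes, and no class led it. The Cxcl16 gene overlaps Zmynd15 in RefSeq.

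Dendritic-like wells led the interferon-induced ligands Cxcl9 and Cxcl10, which attract activated T cells through Cxcr3. Cxcl9 was at 1466 (1317 to 1627) in dendritic-like, 286 (244 to 332) in endothelial-like and 209 (165 to 261) in Kupffer-like wells. A few cells carried most of it in the dendritic-like class: 29 of 144 wells had a UMI, and 5 wells held 64.2% of the 355. In endothelial-like wells 99 of 877 had a UMI, and the top 5 held 19.9% of the 171. The share of wells with a UMI was 20.1% in dendritic-like and 11.3% in endothelial-like wells, and 14.6% and 7.53% after thinning to 300 UMIs, so the gap was narrower in wells than in UMIs. Cxcl10 was at 248 in dendritic-like, 119 in Kupffer-like and 90.2 in endothelial-like wells, and 57 of its 60 dendritic UMIs came from 5 wells.

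Ccl9 (MIP-1 gamma), a further Ccr1 ligand of rodents, was at 372 (299 to 457) in dendritic-like and 67.8 in Kupffer-like wells, and its 90 dendritic UMIs came from 31 wells. Cxcl9, Cxcl10 and Ccl9 were also counted in the hepatocyte pairs described below, with higher levels in the periportal zone. Their sequences upstream of the start site are shown for that reason, taken from RefSeq (GRCm38.p6, while the tables were made on mm9) as the 250 bases before the start, in the direction of the gene. Capitals mark matches to 3 published motif patterns on either strand: GAAA, any 2 bases and GAAA again (interferon-stimulated response element), GGG, any 3 bases and TTCC (kappaB), and TTC, any 3 bases and GAA (gamma-activated site).
Cxcl9 (chr5:92328080-92328329, minus strand): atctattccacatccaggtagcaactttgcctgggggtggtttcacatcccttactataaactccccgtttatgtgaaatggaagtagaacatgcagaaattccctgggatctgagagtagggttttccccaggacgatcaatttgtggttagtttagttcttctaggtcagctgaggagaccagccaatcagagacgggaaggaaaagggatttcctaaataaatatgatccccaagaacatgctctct
Cxcl10 (chr5:92348890-92349139, minus strand): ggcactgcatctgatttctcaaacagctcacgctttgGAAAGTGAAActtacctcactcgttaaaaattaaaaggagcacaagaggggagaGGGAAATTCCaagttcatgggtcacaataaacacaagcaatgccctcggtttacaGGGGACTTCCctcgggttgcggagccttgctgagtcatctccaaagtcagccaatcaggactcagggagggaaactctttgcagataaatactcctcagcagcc
Ccl9 (chr11:83578637-83578886, minus strand): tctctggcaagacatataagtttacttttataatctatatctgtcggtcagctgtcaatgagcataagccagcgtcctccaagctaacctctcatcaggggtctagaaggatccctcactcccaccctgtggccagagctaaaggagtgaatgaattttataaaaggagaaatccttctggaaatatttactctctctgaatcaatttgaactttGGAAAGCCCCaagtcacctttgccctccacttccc
The Cxcl10 window held GAAAGTGAAA and the kappaB matches GGGAAATTCC and GGGGACTTCC, 213, 159 and 104 bases before the start at their first base. The Ccl9 window held 1 kappaB match on the opposite strand, printed as GGAAAGCCCC, and the Cxcl9 window held none of the 3 patterns in these letters. Over all 32851 windows of this length, 2.98% held the response element, 4.65% the kappaB pattern and 7.02% the gamma-activated site. Among the 41 chemokine system symbols with a window, 3, 9 and 4 held them. No pattern overlapped another in these 3 windows, and a match describes letters only.

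The endothelial-like class led 2 genes, Cxcl12 and Cxcr7. Cxcl12 (SDF-1), which holds leukocytes and progenitors through Cxcr4, was at 90.2 (67.8 to 118) in endothelial-like wells and at 32.5 in NK-like wells, the next class. The hepatocyte RNA in these classes, taken as the share of the hepatocyte marker level times the level in pairs, would hold 12.6 and 14.3. The log2 ratio of 1.47 (0.39 to 2.76) fell to 0.04 when each well was thinned to 300 UMIs, so the lead rests on few UMIs. Cxcr7, a receptor that binds Cxcl12 and clears it, had 9 of its 10 UMIs in endothelial-like wells. These came from 5 wells, with 5 UMIs in a single well. The log2 interval of this lead (-0.96 to 7.34) allows no difference. Cxcr7 was chosen for naming after its values were seen, as were the other genes named here with fewer than 50 UMIs.

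Ccl25 (TECK), which draws lymphocytes to the gut through Ccr9, was low in every class: 61 UMIs, with levels of 47.4 in plasmacytoid-like, 45.1 in endothelial-like and 2.71 in Kupffer-like wells. Of these UMIs 59 came from the lower range of well numbers. In endothelial-like wells, which held 25 of the lower and both of the upper UMIs, the hepatocyte marker level was 9823 per 1000000 in the lower and 14279 in the upper range. Ccl2 (14 UMIs, MCP-1, which recruits monocytes) and Cxcl2 (17 UMIs, which recruits neutrophils) had 7 and 11 of these UMIs in Kupffer-like wells.

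The cluster of 18 wells without a name held the highest levels of 4 genes. Its leading genes were Il12b, Cacnb3, Nr4a3, Fscn1 and Il4i1, and its median depth was 1435.5 UMIs. Ccl22 (MDC), a ligand of Ccr4 on regulatory T cells, had 89 of its 101 UMIs there, from 9 wells with at most 29 in a well. Ccl17 (TARC), which binds the same receptor, had 37 of 48, from 5 wells. Ccr7, the receptor that takes dendritic cells and naive lymphocytes to lymph nodes, had 118 of 299, in 15 of the 18 wells, a level of 4565 (3779 to 5467). Cxcl16 was at 1857 there and Ccl5 at 7157. The wells came from 7 of the 11 plate-sized runs of well numbers, and each of Ccl22 and Ccl17 had no more than 8 UMIs in any of the 7 named classes.

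Among the receptors, B-like wells led Ccr7, Cxcr5 and Ccr6. Cxcr5, the receptor for Cxcl13, was at 384.5 (311 to 470) with 94 of its 105 UMIs in B-like wells. The next class, NK-like, held 3 UMIs, and the log2 ratio was 4.98 with an interval of 3.39 to 7.28. Ccr7 was at 458 (377 to 551) in B-like and 75.3 in T-like wells, a 6.08-fold difference (log2 2.60, and 0.81 in the upper range of well numbers alone), and 0 UMIs were found in dendritic-like wells. Ccr6, which binds Ccl20, had 24 of its 30 UMIs in B-like wells, and Ccl20 had none in the table. Cxcr4, the Cxcl12 receptor of nearly all leukocytes, was at 851 in B-like, 474 in plasmacytoid-like, 281 in dendritic-like and 21.7 in endothelial-like wells, with no class 2-fold above the next. The Cxcr5 gene overlaps Bcl9l in RefSeq.

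Ccr9 marked plasmacytoid-like wells. It was at 2321 (2039 to 2630) there, with a UMI in 67.6% of 111 wells, and at 90.1 in T-like wells, a 25.8-fold difference. In endothelial-like wells it was found in 0.342% of wells.

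Xcr1, the receptor of conventional dendritic cells that cross-present antigen, had 95 of its 97 UMIs in dendritic-like wells, from 35 of 144 wells. NK-like and T-like wells held 1 UMI each, and the log2 ratio to NK-like wells was 6.59 (4.08 to 11.91). Its ligand, Xcl1, was at 698 in NK-like wells and 0 in dendritic-like wells, so ligand and receptor were in separate classes. Ccr2, the monocyte receptor for Ccl2, was at 801 in dendritic-like, 364 in T-like and 126 in NK-like wells. The level of the monocyte marker list was 9725 in dendritic-like wells and 6605 in Kupffer-like wells, and its part in the Ccr2 level was not tested.

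T-like wells had the highest level of 2 receptors without a 2-fold lead. Cxcr6, the Cxcl16 receptor of liver-resident lymphocytes, was at 755 (688 to 827) in T-like and 398 (323 to 485) in NK-like wells and at no more than 28.4 elsewhere. Cxcr3, the receptor for Cxcl9 and Cxcl10, was at 249 in T-like, 170 in NK-like and 152 in plasmacytoid-like wells. Both were thus highest in T-like and NK-like wells. Cx3cr1, the fractalkine receptor of patrolling monocytes and many macrophages, was at 157 in Kupffer-like and 82.6 in dendritic-like wells. That log2 ratio of 0.93 turned to -5.14 when the wells with at least 500 UMIs were clustered anew. Reads of Cxcr6 and Fyco1 may be mixed, since the genes overlap in RefSeq.

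The neutrophil-like wells held 17 of the 21 UMIs of Cxcr2, the main receptor of neutrophils for Cxcl1 and Cxcl2, and Ccr1 was at 787 in them. In dendritic-like wells Ccr1 was at 74.3. Both receptors therefore stood higher outside the 7 compared classes than in any of them.

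In some known pairings the ligand and its receptor were highest in the same class, and in others they were not. Cxcl12 and Cxcr7 were both highest in endothelial-like wells, but on 9 Cxcr7 UMIs, 5 of them in a single well. Ccr9 was highest in plasmacytoid-like wells. Its ligand Ccl25, with 5 UMIs there and 27 in endothelial-like wells, was not separated between these classes (log2 0.07, -1.66 to 1.47). Cxcl13 was highest in Kupffer-like and its receptor Cxcr5 in B-like wells, and Cxcl16 was highest in Kupffer-like and Cxcr6 in T-like wells. Ligands of Ccr7 were almost not seen: Ccl19 and Ccl21b had 0 UMIs in the table, Ccl21c 1 and Ccl21a 3, and the copies of Ccl21 are near-identical. Ccr4, the receptor of Ccl17 and Ccl22, had 2 UMIs in kept wells, both T-like, and Ccr8 had none.

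The remaining genes with a UMI had few in the single-cell table: Cxcl1 and Ccl27a had 8 and 10, Cxcl14 7, Cxcl11 and Ccl12 6, Ccl8 and Ccr10 5, Ccl11 and Cx3cl1 3, Cxcl15 2, and Ccl7, Cxcl3, Cxcl17 and Cxcr1 1. Besides Ccl19, Ccl20, Ccl21b and Ccr8, the genes listed at 0 were Ccl26, Ccl27b, Cxcl5, Ccr1l1 and the pseudogene rows Ccl19-ps1 and Ccl19-ps3. In the pairs Cxcl11 had 20 and Cxcl14 13 UMIs, under the minimum for a comparison.

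Other genes of the pathway came from 6 lists. Of 9 atypical and related receptors with enough UMIs, 7 were led by a class, with a median log2 ratio of 2.84: Darc, Ccbp2, Ccrl1 and Ccrl2 by endothelial-like, Cmklr1 and Fpr1 by Kupffer-like and Gpr183 by B-like wells. Ccrl1, a scavenger of Ccl19, Ccl21 and Ccl25, was at 55.1 in endothelial-like and 4.13 in dendritic-like wells. In the other lists, where the share over all genes was 20.6%, the genes led were 2 of 15 for receptor signalling, 2 of 8 for chemokine display and cleavage, 2 of 11 for adhesion in leukocyte arrest, 3 of 13 for inducing cytokines and NF-kappaB, and 0 of 2 for chemokines of other names. Dpp4, a protease that trims chemokines, was at 618 in endothelial-like and 111 in dendritic-like wells, and Vcam1, an adhesion molecule, at 1410 in Kupffer-like and 327 in endothelial-like wells.

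Well numbers fell in 2 ranges, of 5 and 6 plate-sized runs. These are also the numbers of libraries of the 2 mice, but no source joins them, so the ranges served only as a check within the table. Of the 24 genes with at least 50 UMIs, 20 had the same leading class in both ranges, and Ccl3, Ccl4, Ccl22 and Ccl25 did not. Ccl3 in NK-like wells was at 64.3 in the lower and 538 in the upper range, and Ccl4 at 230 and 1141. Cxcl13 in Kupffer-like wells went the other way, at 912 in the lower and 205 in the upper range, a 4.45-fold difference. Cxcl9 in Kupffer-like wells was at 36.0 and 472, and 5 wells held 57 of its 77 UMIs in that class. Ccl24 in the same Kupffer-like wells was at 211 and 226. Which property of the ranges moved with these levels was not tested.

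**Figure D2:**
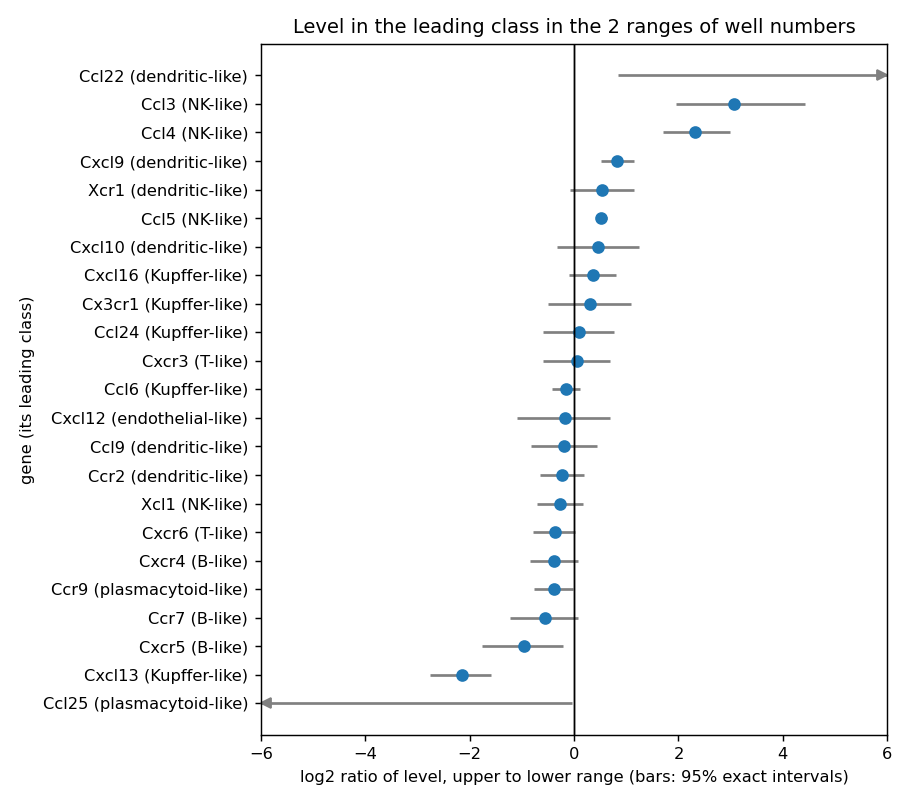
Log2 ratio of the level in the upper to the lower range of well numbers, in the leading class of 23 of the 24 genes, with 95% intervals. Ccl3 (3.06) and Ccl4 (2.31) stand to the right and Cxcl13 (-2.15) to the left; arrows mark Ccl22 and Ccl25, which had 0 UMIs in 1 range of their leading class.

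Finer clusters, again built without the chemokine system genes, divided the macrophages. Among the mostly Kupffer-like wells, a cluster of 212 wells was led by Timd4, Vsig4 and Clec4f, genes of resident Kupffer cells, and a cluster of 90 wells by Ms4a7 and Tlr13. Cx3cr1 was at 6.90 (0.836 to 24.9) in the first and 680 (514 to 884) in the second. Ccr2 was at 17.2 and 292, and Cxcl9 at 65.5 and 705. Cxcl13 was at 749 and 194, and Ccl24 at 262 and 48.6. The ligands that mark Kupffer-like wells thus lay with the Timd4 cluster, and Cx3cr1, Ccr2 and Cxcl9 lay with the other, beyond counting error in each case. Counting error does not cover UMIs gathered in few wells. The top 5 Kupffer-like wells held 74.0% of the Cxcl9, 70.4% of the Ccr2 and 50% of the Cx3cr1 UMIs of that class, and 51.1% of the Cxcl13 and 32.5% of the Ccl24 UMIs.

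Ccr7 divided the T-like wells. It was at 199 (138 to 278) in 195 wells led by Tcf7, Il7r and Lef1, genes of naive and memory T cells, and at 7.35 (0.890 to 26.5) in 218 wells led by Podnl1 and Cd28. Another cluster of 137 wells had Ccr7 at 17.5. Its leading genes included Tpsb2 and Cpa3, known from mast cells, and the hemoglobin genes Hbb-b2, Hba-a2, Hba-a1 and Hbb-b1. The naming rule gave it the erythroid list, although 96.4% of its wells were T-like. Cxcr6 was at 673, 816 and 901 in the same 3 clusters, so it was in all of them. Of the mostly NK-like wells, 187 led by Klrb1a and Klra8 had Ccl5 at 17267 and Xcl1 at 781, and 177 with a mixed makeup (68.9% NK-like) had Ccl5 at 6325 and Xcl1 at 377.

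The endothelial-like wells also divided into finer clusters, which were not placed along the lobule. In 122 wells led by Rspo3, Fmo2 and Wnt2, where Rspo3 and Wnt2 are Wnt pathway genes of central vein endothelium, Cxcl9 was at 159 (87.1 to 267) and Cxcl12 at 11.4 (0.288 to 63.4). In 63 wells led by Ednrb and Flrt2, Cxcl9 was at 115 (42.3 to 251). In the 3 other clusters of more than 50 wells, Cxcl9 was between 320 and 367. Cxcl12 was highest in the clusters led by Flrt1 (122) and by Hlf (106). For Cxcl12 the Rspo3 cluster lay below the Flrt1 cluster beyond counting error, while for Cxcl9 their intervals met.

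**Figure D3:**
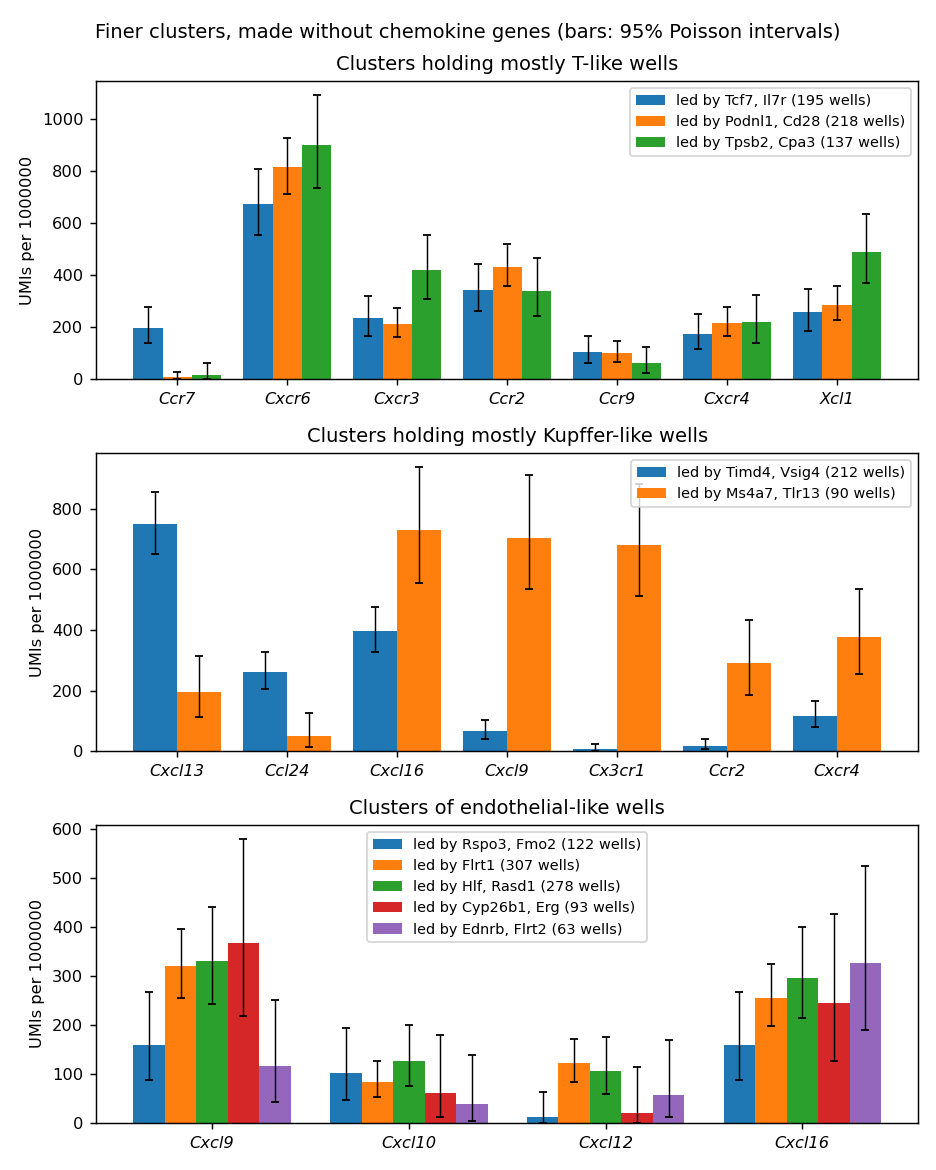
UMIs per 1000000 of selected genes in finer clusters of T-like (top), Kupffer-like (middle) and endothelial-like wells (bottom), with 95% Poisson intervals and the number of wells. Ccr7 stands out in the Tcf7 cluster at 199, Cx3cr1 and Cxcl9 in the Ms4a7 cluster at 680 and 705, and Cxcl13 in the Timd4 cluster at 749.

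The pairs show where along the lobule these genes were transcribed. All 4621 pairs were placed by a score from 25 hepatocyte landmark genes, and the outer tertiles were called pericentral (1540 pairs) and periportal (1541 pairs). A pair holds mostly hepatocyte RNA: endothelial RNA was estimated at 2.34% of its UMIs. Of the 60 genes, 28 had no UMI and 9 had at least 30 over both zones, all of them ligands. With a limit of 1.5-fold, 5 were higher in the periportal zone, where the share over 11402 genes was 5.3%, and 1 in the pericentral zone (9.06% of all genes). The 20 receptors together had 43 UMIs among 56976156, and 12 of them had any.

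Cxcl12, with 7879 UMIs, was found in 70.2% of pairs. Its level rose from 114 (108 to 121) in the most pericentral of 5 layers through 130, 143 and 150 to 153 (146 to 160) in the most periportal. With tertiles taken anew within each block of well numbers, it was higher in the periportal zone in 17 of 17 blocks. Over all pairs the log2 ratio of -0.36 (-0.44 to -0.28) was under the limit of 1.5-fold. At the estimated endothelial share, endothelial RNA would hold 1.52% of the Cxcl12 in pairs.

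Ccl9 had the steepest gradient with many UMIs. Its level was 17.1 in layer 1, 35.8 in layer 2, 53.7 in layer 3, 68.5 in layer 4 and 85.7 (80.5 to 91.2) in layer 5. Pericentral pairs held 443 UMIs and periportal pairs 1508, a log2 ratio of -1.75 (-1.90 to -1.59). A UMI was found in 22.1% of pericentral and 52.7% of periportal pairs, and the periportal zone was higher in 16 of 16 blocks. Endothelial RNA would hold 1.19% of it. The Kupffer marker level was 10.3 per 1000000 in pericentral and 12.1 in periportal pairs, far under the 39653 of Kupffer-like wells. The level of the dendritic list was 305 and 283, against 3167 in dendritic-like wells. Flt3, Cd209a and Clec10a of that list had 0 UMIs in pairs, so the list may not show dendritic RNA there. The part of other cells in the Ccl9 level was not tested.

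**Figure D4:**
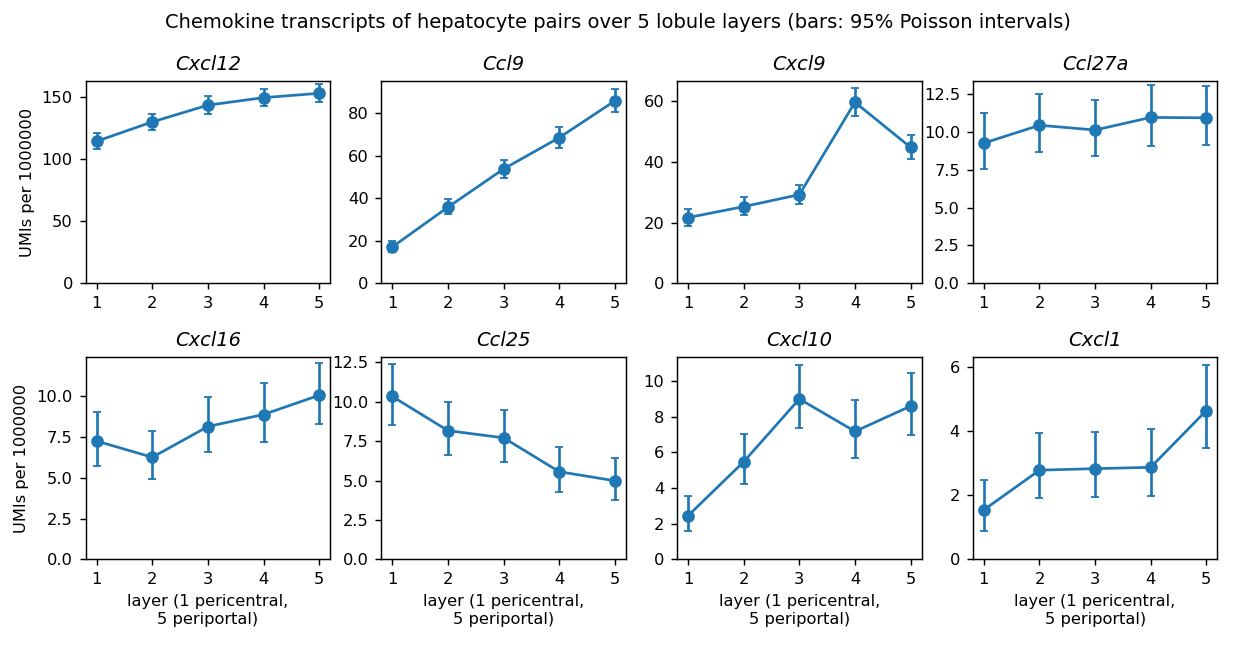
Levels of 8 ligands (UMIs per 1000000, with 95% Poisson intervals) over 5 layers of pairs from layer 1 (pericentral) to layer 5 (periportal), each panel with its own axis from 0. Ccl9 climbs in every step from 17.1 to 85.7, Cxcl12 climbs from 114 to 153, Ccl25 falls from 10.3 to 4.99, and Cxcl9 peaks in layer 4 at 59.7.

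Cxcl9 and Cxcl10 were also higher in periportal pairs, but through few of them. Cxcl9 had 462 pericentral and 973 periportal UMIs, a log2 ratio of -1.05 (-1.22 to -0.89). Of its 2057 UMIs, 66.9% lay in 46 pairs, and 1 pair held 216. With tertiles within each block the log2 ratio was -0.57, under the limit, and the periportal zone was higher in 8 of 16 blocks. Without block 15 the log2 ratio was -0.63. Pairs with a Cxcl9 UMI were 9.35% of pericentral and 12.7% of periportal pairs. The direction of Cxcl9 was thus not shared by the blocks, unlike that of Ccl9 and Cxcl12.

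Cxcl10 had 73 pericentral and 155 periportal UMIs (log2 ratio -1.07, -1.49 to -0.66), and 68.0% of its 375 UMIs lay in 46 pairs. With 1 block left out the log2 ratio lay between -1.89 (without block 10) and -0.70. With tertiles within each block, the periportal zone was higher in 7 of the 9 blocks with at least 10 zone UMIs. The 46 pairs with most Cxcl9 had Cxcl10 at 105, against 5.25 in the other 4575 pairs. Their Kupffer marker level was 6.59 against 11.5, their dendritic marker level 271 against 287 and their endothelial marker level 831 against 1021. The T marker level was 2.63 against 2.06, and 20 of the 39 Ccl5 UMIs of all pairs lay in these 46. The pairs rich in Cxcl9 were also rich in Cxcl10, and the levels of these Kupffer, dendritic and endothelial lists were not higher in them. The dendritic list may not show dendritic RNA in pairs, as said for Ccl9, and the Kupffer list had only 650 UMIs over all pairs. The part of other cells in the Cxcl9 level was therefore not tested. In the 46 pairs with most Cxcl10, the Kupffer marker level was 37.8. This was above that of the other pairs and of the pairs rich in Cxcl9. The endothelial marker level was 1426 against 1013 in the other pairs. Pairs with 1 Cxcl10 UMI lay on both sides of this cut, so the choice of the 46 was partly arbitrary. The Cxcl9 cut fell in the same way among pairs with 7 Cxcl9 UMIs. As Kupffer UMIs were few in pairs, the size of the Kupffer difference is uncertain. The part of the Kupffer and endothelial markers in the Cxcl10 level was not tested. Cxcl10 overlaps Art3 in RefSeq, and Cxcl9 is the next gene on the other side of Art3.

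**Figure D5:**
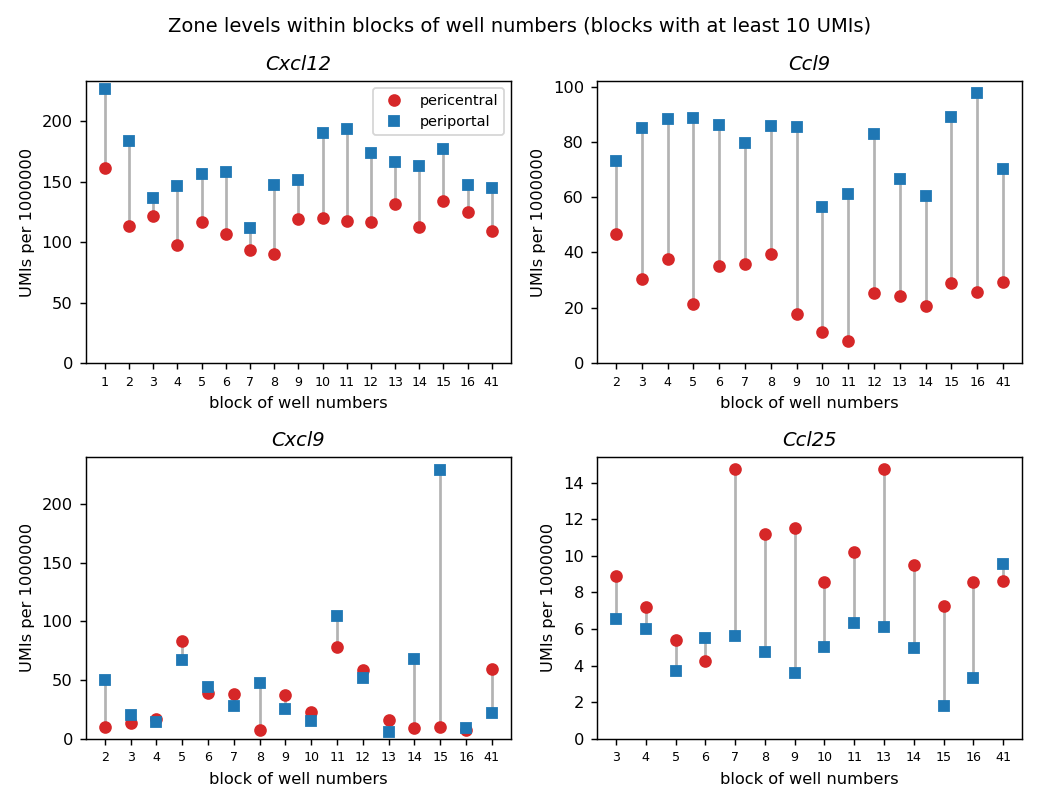
Levels in pericentral (circles) and periportal pairs (squares), with tertiles taken within each block of well numbers, for blocks with at least 10 zone UMIs of the gene. Periportal levels are higher in 17 of 17 blocks for Cxcl12 and 16 of 16 for Ccl9; Cxcl9 is split, with block 15 at 229 periportal and 9.69 pericentral, and Ccl25 is higher pericentrally in 12 of 14.

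Ccl25 was the ligand with a pericentral direction. Its 178 pericentral and 92 periportal UMIs gave a log2 ratio of 0.97 (0.60 to 1.35), and the level fell from 10.3 to 4.99 over the 5 layers. The direction was shared by 12 of 14 blocks. Ccrl1, which encodes a scavenger of Ccl25 and had an endothelial lead in single cells, was pericentral as well, with 50 against 18 UMIs (log2 1.49, 0.69 to 2.36). Darc, which encodes a receptor that binds many inflammatory chemokines, was periportal with 10 against 30 UMIs.

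Cxcl1 (KC), which draws neutrophils, had 41 pericentral and 78 periportal UMIs (log2 -0.91, -1.49 to -0.34). Ccl27a, a skin chemokine that binds Ccr10, was level over the lobule, with 175 and 205 UMIs. Ccl27a has a near-identical copy and overlaps Il11ra1, so its counts may be shared with either. Cxcl16, with 135 and 181 UMIs, stayed under the limit, and endothelial RNA would hold 73.4% of it, the highest such share among the 9 apart from Ccl5. The share was 32.0% for Cxcl10, 18.5% for Cxcl9 and 14.4% for Ccl25. For Ccl5 it came to 798%, more than the whole, so the estimate can overstate the endothelial part. Ccl5 had 6 and 24 UMIs, 17 of them in 1 pair, and without block 14 its log2 ratio went from -1.98 to -0.16. Cxcr7, under the minimum with 21 UMIs, had 14 in pericentral and 2 in periportal pairs (log2 2.83, 0.71 to 6.01).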

How the data were processed

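The authors deposited counts: whole numbers of UMIs per gene and well in 1 table of single cells and 1 of pairs, with no normalization in the files. Per the submitters' processing notes, bcl2fastq 2.15.0.4 was used and mm9 was the build. The aligner, the annotation and whether strand was used are not given in these sources. Spike-in rows (52.8% of UMIs in single cells, 0.715% in pairs) were left out.

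Wells of single cells with at least 300 gene UMIs were brought to a sum of 1000 UMIs, put on a log scale, reduced to 30 components of 2000 variable genes without the chemokine system genes, and clustered with Leiden (15 neighbours, resolution 1, and 2 for the finer clusters) in scanpy 1.11.5 with numpy 2.4.6 and scipy 1.17.1. A cluster took the name of the marker list with the largest share of its genes 2-fold higher in it, and at least 3 such genes. Doublets were not called, because each cell had a well of its own. UMIs were then summed per class or zone. A class comparison needed at least 10 UMIs and a zone comparison at least 30. Pairs were scored by UMIs of 13 pericentral against 12 periportal landmark genes, and 1036 pairs lay near a tertile limit. Pairs held 2423 to 49311 UMIs. The endothelial share of pairs is the median over endothelial markers of the level in pairs over that in endothelial-like wells, which came from older mice.

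The members, marker lists, pathway lists and rules were chosen with earlier results of these data known. Named genes were those with at least 50 UMIs in kept single cells or at least 30 in the outer zones, 26 in all; others named were chosen after their values were seen, and 1 of the 26 is not reported here. The test planned for samples of a group was replaced by levels with intervals, since each table is 1 sample. RefSeq gene order (GRCm38.p6) matched 26 of 26 named genes, 12 of which overlap another gene. The scripts were tested on simulated data.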

Additional observations from a re-analysis of the deposited data

Results flagged for a closer look

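The wells under 300 gene UMIs, left out of every comparison, held 859 UMIs of 36 chemokine system genes, or 0.44% of their gene UMIs, against 0.544% in the wells kept. Ccl5 (347), Ccl6 (103) and Cxcl9 (46) were the most frequent there. The neutrophil-like cluster, outside the 7 compared classes, held 118 such UMIs, of which Ccl6 gave 57 and Cxcr2 17. The cluster without a name held 496, a level of 19188 per 1000000, against 1304 in endothelial-like and 16553 in NK-like wells, the lowest and the highest of the 7 classes. Each of these counts lies outside the data used for the class comparison, and there were no control samples.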

How the results depend on the processing

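With 31 genes tested, 23 were led by a class. The count was 14 after thinning each well to 300 UMIs, 14 in the upper range of well numbers alone and 12 with wells in place of UMIs, where 23, 24 and 26 genes reached the minimum, and leaving out 1 run of well numbers at a time gave 19 to 25. In the lower range alone the log2 ratio of NK-like to plasmacytoid-like wells turned to -0.88 for Ccl4 and -0.64 for Ccl3. With wells in place of UMIs, as wells with a UMI per UMI of the class, which lowers deep classes, Cxcl9 (dendritic-like to endothelial-like) turned to -0.47 and Cxcl10 (dendritic-like to Kupffer-like) to -0.30, while their shares of wells kept the order (20.1% against 11.3%, and 5.56% against 5.05%). Also under 2-fold were Ccr2 (0.44), Xcl1 (0.68) and Ccl4 (0.64) on the same scale, and Cxcl10 after thinning (0.46). Over settings other than leaving out a run, 235 ratios of single genes stayed within their interval, 62 left it and 4 reversed. With a minimum of 500 UMIs, Cx3cr1, which no class led, went from 0.93 to -5.14, as the wells were clustered anew. In pairs, the 5 periportal genes were 3 with tertiles within each block (Ccl9, Cxcl10 and Cxcl1), 2 after thinning pairs to 1000 UMIs, 3 with pairs in place of UMIs, and 4 to 5 with 1 block left out. The 1 pericentral gene became 0 after thinning and 3 with no minimum of UMIs, and was 1 with 1 block left out. Thinning left 4 genes above the minimum. The settings with 1 range of wells, with wells or pairs in place of UMIs and with NK-like wells free of Cd3 and Cd8 UMIs were chosen after seeing the data. In the last of these, Ccl4 was at 459 (335 to 614) in NK-like and 303 (207 to 428) in plasmacytoid-like wells, under the 2-fold limit. Ccl5, Xcl1 and Ccl3 stayed above it. At resolution 0.5 no NK-like class formed: 905 wells took the T name, with all 12 NK markers also 2-fold higher in them. The leads of NK-like wells thus depend on the clustering used. No paired analysis was possible because wells carry no link to a library or a mouse. Depth limits the receptors in pairs, where a count of 0 allows a level of up to 0.0647 per 1000000.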

Other observations

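Within classes, wells that held a UMI of a receptor gene differed from the rest in other chemokine system genes. Of the T-like wells, 232 held a Cxcr6 UMI (median depth 1068 UMIs) and 370 did not (779 UMIs). Ccr7 had 0 UMIs in the first and 46 in the second, levels of 0 (up to 13.7) and 135 (98.7 to 180). Ccl4 was at 29.7 with Cxcr6 and 185 without, and Ccr9 at 145 and 46.9. Cxcr6 and Ccr7 were thus found in separate wells, although the wells with Cxcr6 were the deeper ones.

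Of the dendritic-like wells, 35 held an Xcr1 UMI and 109, with a lower median depth of 1222 UMIs, did not. Ccl9 had 0 UMIs in the first and 90 in the second, levels of 0 (up to 46.3) and 554 (445 to 681). Ccl6 was at 62.8 and 1089, Cxcl10 at 12.6 and 363 (57 of its 60 dendritic UMIs lay in 5 wells), and Cx3cr1 at 0 and 123. Cxcl9 was at 1356 (1112 to 1637) and 1520 (1336 to 1722), with intervals that overlapped, and Ccr2 at 565 and 917. Ccl6 and Ccl9 thus lay mainly in dendritic-like wells without Xcr1, while Cxcl9 was in both. Wells with and without a UMI were split by 1 gene with few UMIs, so the wells without it can include cells that express it.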
